A study of Mus musculus with 6 samples.

Results

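The core circadian clock genes were followed in sorted mouse knee chondrocytes, the cells that make and maintain cartilage, at an embryonic and an adult stage. The members were named by role: Arntl (also Bmal1) and Clock, Per1, Per2, Per3, Cry1 and Cry2, Nr1d1 and Nr1d2, and Dbp. All 10 were found among the 22032 genes of the mouse matrix, each under 1 Ensembl identifier. They are textbook components of the clock, and the rule that lists them uses no measured value, although results of these data were known when it was set. RNA-seq had been carried out on 3 samples of embryonic cartilage and 3 of adult cartilage, described as biological replicates. The labels give the embryonic age as 16.5 weeks, whereas the text of the study places it at embryonic day 16.5. Adult animals were 2 months old, of the B6 strain and male according to the methods, and no transgene or treatment was named for either stage. The strain and sex of the embryos, the number of animals behind a sample and the hour of collection are not given in the sources used here. Any difference of strain or sex between the groups cannot be told apart from stage.

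Both stages were digested with enzymes for hours and then sorted for BMPR1B, a BMP receptor of articular chondrocytes, with CD31, CD45, Ter119 and alkaline phosphatase positive cells gated out. A clock transcript can rise and fall within a day, so that the stage and the hour of collection cannot be told apart in a comparison of this kind. In bulk samples, fewer cells of a type and less RNA per cell cannot be told apart either.

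The clock is a feedback loop of transcription found in most mammalian cells, cartilage included. BMAL1 and CLOCK bind DNA as a pair at E-boxes and activate the Per and Cry genes, whose proteins return to the nucleus and repress that pair. A second loop runs through the nuclear receptors REV-ERB alpha and beta, encoded by Nr1d1 and Nr1d2, which repress Arntl at sites shared with the activating ROR receptors. DBP is an output transcription factor that binds D-boxes.

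The promoters of 4 members are printed because they carry the elements through which these loops are known to work. They were taken from RefSeq on GRCm38.p6, run 5′ to 3′ on the gene's strand from 250 bases before to 50 bases after the start site, and show each motif found in capitals. The capitals mark D-boxes in Per3, an E′-box and then an E-box in Cry1, an E′-box in Nr1d1 and a ROR element in Arntl.
Per3, chr4:151044616-151044915, minus strand: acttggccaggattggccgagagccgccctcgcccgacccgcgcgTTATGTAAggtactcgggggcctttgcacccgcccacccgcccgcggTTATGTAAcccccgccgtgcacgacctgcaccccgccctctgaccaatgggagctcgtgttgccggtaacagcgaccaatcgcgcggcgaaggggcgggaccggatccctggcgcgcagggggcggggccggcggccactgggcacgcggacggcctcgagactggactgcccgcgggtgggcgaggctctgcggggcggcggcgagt
Cry1, chr10:85185005-85185304, minus strand: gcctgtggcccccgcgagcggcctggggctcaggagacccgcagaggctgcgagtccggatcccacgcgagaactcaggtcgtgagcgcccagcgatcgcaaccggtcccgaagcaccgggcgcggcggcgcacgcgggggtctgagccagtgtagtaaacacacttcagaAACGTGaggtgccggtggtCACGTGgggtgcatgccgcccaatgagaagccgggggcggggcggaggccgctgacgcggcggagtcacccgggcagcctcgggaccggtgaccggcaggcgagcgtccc
Nr1d1, chr11:98775328-98775627, minus strand: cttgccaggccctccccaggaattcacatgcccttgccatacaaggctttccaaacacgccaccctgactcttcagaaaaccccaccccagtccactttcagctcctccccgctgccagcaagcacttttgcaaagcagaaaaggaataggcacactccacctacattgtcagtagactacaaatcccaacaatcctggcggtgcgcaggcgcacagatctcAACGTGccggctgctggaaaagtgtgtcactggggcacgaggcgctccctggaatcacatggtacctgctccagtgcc
Arntl, second of 2 windows, chr7:113207261-113207560, plus strand: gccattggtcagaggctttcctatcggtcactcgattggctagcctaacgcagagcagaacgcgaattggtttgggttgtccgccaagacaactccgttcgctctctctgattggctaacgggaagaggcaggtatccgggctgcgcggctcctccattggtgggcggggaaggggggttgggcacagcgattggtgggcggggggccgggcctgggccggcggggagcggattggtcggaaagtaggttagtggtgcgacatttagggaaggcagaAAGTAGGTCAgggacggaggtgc

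Windows were on hand for 9 of the 10 members, 13 windows in all, and Per2 had none. Each motif was searched on both strands of these and of all 32851 windows of the same length. The D-box, as TTATGTAA or TTACGTAA, was present in 1.06% of all windows and among the members in that of Per3, which held it at 205 and at 158 bases before the start. The E-box CACGTG stood in 7.15% of all windows, and in those of Cry1 at 60 bases and Per1 at 166 bases before the start. The E′-box CACGTT, written AACGTG on the other strand, stood in 4.68% of all windows and in those of Cry1, Cry2 and Nr1d1, at 79, 166 and 28 bases before the start. A ROR element was present in 0.773% of all windows and in that of Arntl, as AAGTAGGTCA, at base 28 after the start. The cyclic AMP response element TGACGTCA stood in 1.79% of all windows and in 0 windows of the members. These letters were not found in the windows of Dbp, Nr1d2 or Clock, which says nothing of sites elsewhere in those genes. A match is a stretch of letters and not a measured site of binding.

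Of the 10 members, 6 passed the test between stages, 4 with a higher level in the adult samples (Nr1d1, Nr1d2, Per3 and Dbp) and 2 with a lower one (Per2 and Cry1). That is 60.0% of the members, against a background of 45.3% of the 13125 genes tested, 23.9% higher and 21.4% lower in adult chondrocytes. The balance over all genes depended on scaling, with 3140 higher and 2809 lower as tested but 2613 higher and 3238 lower under median-of-ratios scaling, while the 4 higher and 2 lower members were called under each scaling tried. The test was limma on log2(TPM + 1), where TPM is a level scaled for gene length and for the total of the sample. It called a gene at a Benjamini-Hochberg adjusted p under 0.05 over all genes whose mean reached 1 TPM, a filter that all 10 members passed. The median difference of the members, adult minus embryonic, was 0.03 on the log2 scale and that of all genes tested 0.16, while the median absolute difference was 1.84 for the members and 0.78 for all genes. The values of the stages did not overlap for 7 of the 10 members, as for 56.5% of all genes. The summed level of the members was 296 to 338 TPM in embryonic and 551 to 689 TPM in adult samples. Nr1d1 gave the largest part of that rise, from a mean of 10.2 to 238 TPM, while Cry1 went from 80.3 to 14.7 TPM.

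**Figure D1:**
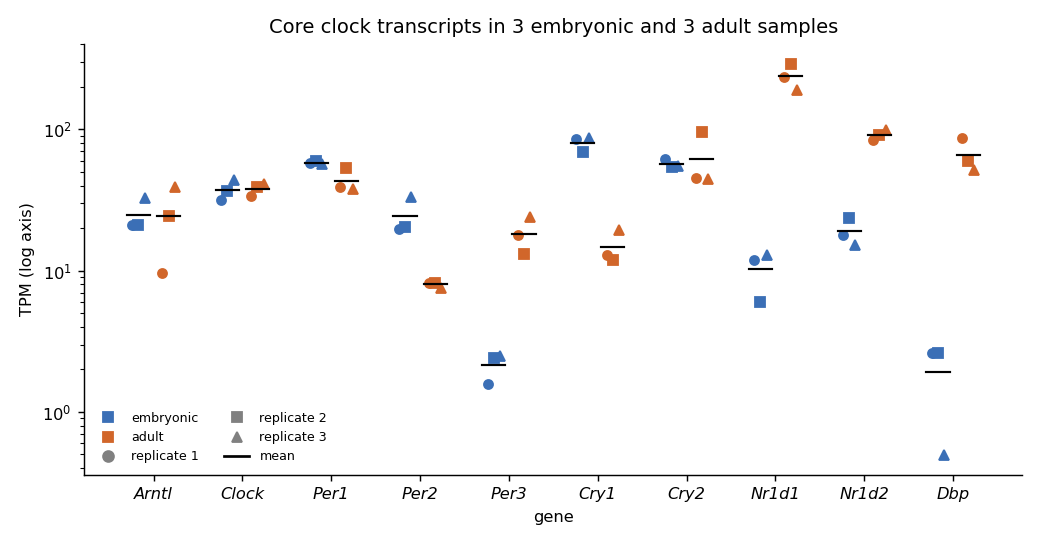
Level of each core clock gene in TPM (log axis) in the 3 embryonic (blue) and 3 adult (orange) samples, with marker shapes for replicate numbers and black lines for stage means. Nr1d1, Nr1d2, Per3 and Dbp sit higher in every adult sample, Per1, Per2 and Cry1 lower, and Arntl, Clock and Cry2 overlap.

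The output gene Dbp showed the largest difference of the members. Dbp (7:45705088-45710203, plus strand, GRCm38) had 2.6, 2.63 and 0.494 TPM in embryonic samples 1 to 3, against 87.1, 59.7 and 51.2 TPM in adult samples 1 to 3. All adult samples were high and the third embryonic sample was the lowest, with no overlap between stages. The means of 1.91 and 66.0 TPM were 34.6-fold apart, and log2(TPM + 1) was 1.43 ± 0.74 (SD, n = 3) against 6.03 ± 0.39 (SD, n = 3). The difference was 4.60 on the log2(TPM + 1) scale (SE 0.418, limma adjusted p = 5.9e-05), which understates the change of a gene this low in the embryonic samples. Without the third embryonic sample it was 4.18. Dbp ranked 62 by size of difference among the tested genes higher in the adult samples. An annotated exon stretch of 539 bases, 18.0% of the exon bases of Dbp, is shared with Sphk2 on the opposite strand, and whether the counting used strand is not given in the sources used here. Sphk2, which encodes a sphingosine kinase, lay between 11.5 and 13.5 TPM in embryonic and between 21.0 and 28.3 TPM in adult samples (log2 difference 0.94, limma adjusted p = 0.0134).

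In the second loop both REV-ERB genes were higher in adult chondrocytes. Nr1d1 (11:98767932-98775333, minus strand) had 11.8, 6.0 and 12.8 TPM in embryonic samples, compared with 234, 292 and 189 TPM in adult samples. Every adult value lay far above every embryonic one, the lowest of all being embryonic sample 2. The means, 10.2 and 238 TPM, differed 23.4-fold, and log2(TPM + 1) rose from 3.42 ± 0.54 (SD, n = 3) to 7.88 ± 0.31 (SD, n = 3), a difference of 4.46 (SE 0.285, limma adjusted p = 9.1e-06). Nr1d1 ranked 69 among the genes higher in the adult samples. It shares 263 exon bases, 8.55% of its own, with Thra on the opposite strand, which encodes a thyroid hormone receptor. Thra went the other way, from 105 to 147 TPM in embryonic samples to 44.5 to 76.6 TPM in adult ones (difference -1.03, limma adjusted p = 0.00529).

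Nr1d2 (14:18204054-18239127, minus strand) was at 17.9, 23.6 and 15.3 TPM in embryonic and at 83.6, 91.8 and 98.6 TPM in adult samples. The adult samples were close to each other and well above the embryonic ones. Its means of 18.9 and 91.3 TPM were 4.83-fold apart and the log2 difference was 2.23 (SE 0.204, limma adjusted p = 6.1e-05). In embryonic samples 1 to 3, Nr1d1 made up 35.2% ± 13.2 (SD, n = 3) of the summed TPM of the pair, and in the adult samples 71.8% ± 5.45 (SD, n = 3). The pair summed to 28.0 to 29.7 TPM per embryonic sample and to 287 to 384 TPM per adult sample.

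Among the repressors, the Per genes went in different directions. Per3 (4:151003652-151044665, minus strand), a period paralog that is not needed for rhythm in most settings, was at 1.58, 2.4 and 2.47 TPM in embryonic and at 18.0, 13.1 and 23.8 TPM in adult samples. It was low in all embryonic samples and the stages did not overlap. The means of 2.15 and 18.3 TPM were 8.52-fold apart, with a log2 difference of 2.59 (SE 0.372, limma adjusted p = 6.9e-04). The promoter printed above with its pair of D-boxes is that of Per3.

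Per2 (1:91415982-91459324, minus strand), a main negative limb component, was at 19.6, 20.3 and 33.0 TPM in embryonic and at 8.2, 8.24 and 7.55 TPM in adult samples. The third embryonic sample was the highest and the adult samples were nearly alike, with an SD of 0.06 on the log2 scale, the smallest of the adult members. The mean fell from 24.3 to 7.99 TPM, 3.04-fold, and the log2 difference was -1.45 (SE 0.296, limma adjusted p = 0.00423).

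Per1 (11:69095217-69109960, plus strand), which also responds acutely to glucocorticoids and other stimuli, was at 58.0, 59.5 and 56.7 TPM in embryonic and at 39.2, 53.1 and 37.9 TPM in adult samples. Each adult value was below each embryonic one, but the second adult sample came close. The log2 difference of -0.43 (95% interval -0.84 to -0.02) missed the threshold (adjusted p = 0.0843 in limma). It passed under median-of-ratios scaling (-0.57, limma adjusted p = 0.0314) and without adult sample 2 (-0.58, limma adjusted p = 0.0316), and over all alternatives the adjusted p ran from 0.0314 to 0.181.

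Per1 was the main period transcript at both stages, with 69.0% ± 6.5 (SD, n = 3) of the family's summed TPM in embryonic and 62.0% ± 8.46 (SD, n = 3) in adult samples, a difference of -7.04 points that ran from -11.7 without adult sample 2 and -10.8 without embryonic sample 3 to -3.41 without adult sample 3. Per2 held 28.4% ± 6.36 (SD, n = 3) in embryonic and 11.5% ± 0.909 (SD, n = 3) in adult samples. Per3 held 2.53% ± 0.475 (SD, n = 3) and 26.5% ± 8.41 (SD, n = 3). Per2 was thus the second period transcript in every embryonic sample and Per3 in every adult sample. The sum of the family was 79.2 to 92.2 TPM in embryonic and 65.4 to 74.5 TPM in adult samples.

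Of the cryptochromes, which bind and repress the BMAL1 and CLOCK pair, Cry1 fell and Cry2 did not pass the test. Cry1 (10:85131700-85185064, minus strand) was at 85.2, 69.4 and 86.4 TPM in embryonic and at 12.8, 11.8 and 19.5 TPM in adult samples. It was high in all embryonic samples and the stages were far apart. The mean went from 80.3 to 14.7 TPM, 5.47-fold lower, and the log2 difference was -2.40 (SE 0.233, limma adjusted p = 8.3e-05). Its promoter holds both the E-box and the E′-box printed above.

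Cry2 (2:92403646-92434043, minus strand) was at 61.7, 54.1 and 55.0 TPM in embryonic and at 45.2, 95.6 and 44.2 TPM in adult samples. The second adult sample was the highest and the others of its stage the lowest, so that the stages overlapped. The log2 difference was 0.02 (95% interval -0.63 to 0.67, limma adjusted p = 0.957), and it was -0.34 without adult sample 2 (limma adjusted p = 0.158). Cry2 shares 295 exon bases, 4.67% of its own, with the opposite-strand transcript D930015M05Rik. That transcript was at 0.382, 0 and 0 TPM in embryonic and at 4.25, 17.1 and 4.8 TPM in adult samples, with its highest value in the same adult sample as Cry2.

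Cry1 made up 58.4% ± 2.47 (SD, n = 3) of the summed cryptochrome TPM in embryonic and 21.2% ± 9.81 (SD, n = 3) in adult samples. The leading cryptochrome was therefore Cry1 in all embryonic and Cry2 in all adult samples. Their sum was 123 to 147 TPM in embryonic and 58.0 to 107 TPM in adult samples.

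**Figure D2:**
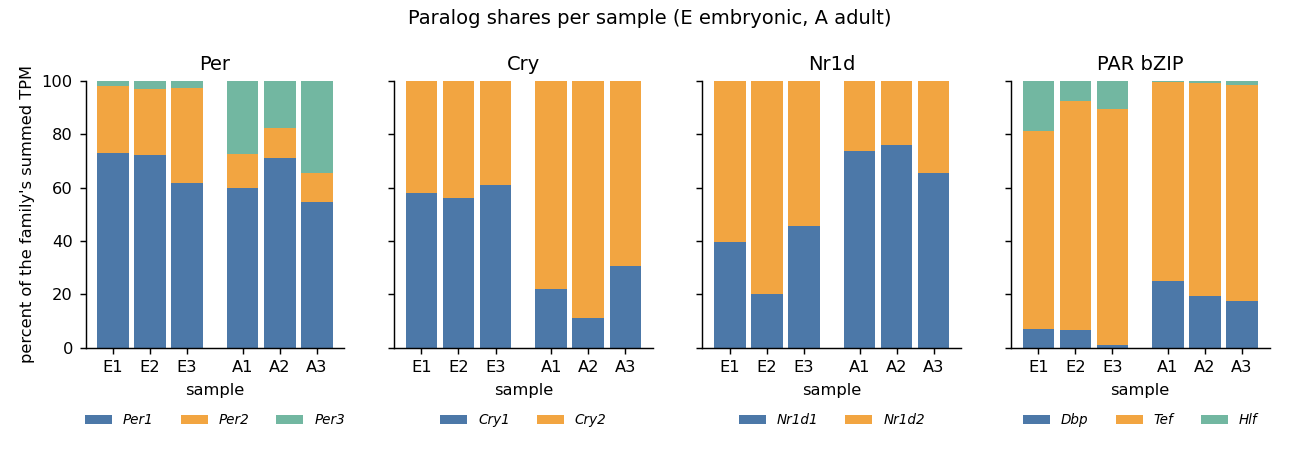
Share of each paralog in the summed TPM of its family (percent, stacked bars from 0 to 100) in embryonic samples 1 to 3 (E1 to E3) and adult samples 1 to 3 (A1 to A3), for the Per, Cry and Nr1d families and for Dbp with its relatives Tef and Hlf. Per3 widens from 2.53% to 26.5%, Cry1 narrows from 58.4% to 21.2%, Nr1d1 widens from 35.2% to 71.8% and Dbp from 4.87% to 20.7% (stage means).

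Neither activator passed the test. Arntl (7:113207465-113314126, plus strand) was at 21.0, 21.1 and 32.5 TPM in embryonic and at 9.64, 24.2 and 39.0 TPM in adult samples. The adult samples spread over the whole embryonic range and beyond it on both sides, with an SD of 0.97 on the log2 scale, the widest of the adult members. The log2 difference was -0.20 (95% interval -1.22 to 0.82, limma adjusted p = 0.737), and it turned to 0.33 without adult sample 1 (limma adjusted p = 0.423). An interval this wide includes a difference of 1 in the lower direction.

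Clock (5:76209868-76304792, minus strand) was at 31.4, 36.8 and 43.5 TPM in embryonic and at 34.0, 39.2 and 40.7 TPM in adult samples, which all lay within the embryonic range. Its log2 difference was 0.03 (95% interval -0.41 to 0.48, limma adjusted p = 0.897). Npas2, the paralog that can stand in for Clock as partner of BMAL1, held 25.8% of the summed TPM of the pair in embryonic and 42.6% in adult samples, with an SD of 5.71 and 12.3 percentage points (n = 3 each), a difference of 16.8 points that was 10.6 points without adult sample 3.

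The order of the levels was not the same at the 2 stages. In the embryonic samples Cry1 (80.3 TPM) led, above Per1 (58.1 TPM) and Cry2 (56.9 TPM), whose values overlapped each other. Clock, Arntl, Per2 and Nr1d2 followed between 37.2 and 18.9 TPM, each overlapping its neighbours, then Nr1d1 at 10.2 TPM, and Per3 and Dbp lay lowest and overlapped each other. In the adult samples Nr1d1 (238 TPM) stood apart at the top, above 95.1% of the genes tested, against 36.5% in the embryonic samples. Below it, each neighbour overlapped the next from Nr1d2 through Dbp, Cry2, Per1, Clock, Arntl and Per3 to Cry1, and Per2 stood apart at the bottom with 7.99 TPM. Dbp moved from above 10.8% to above 77.3% of the genes tested, and Cry1 from above 81.1% to above 40.5%.

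**Figure D3:**
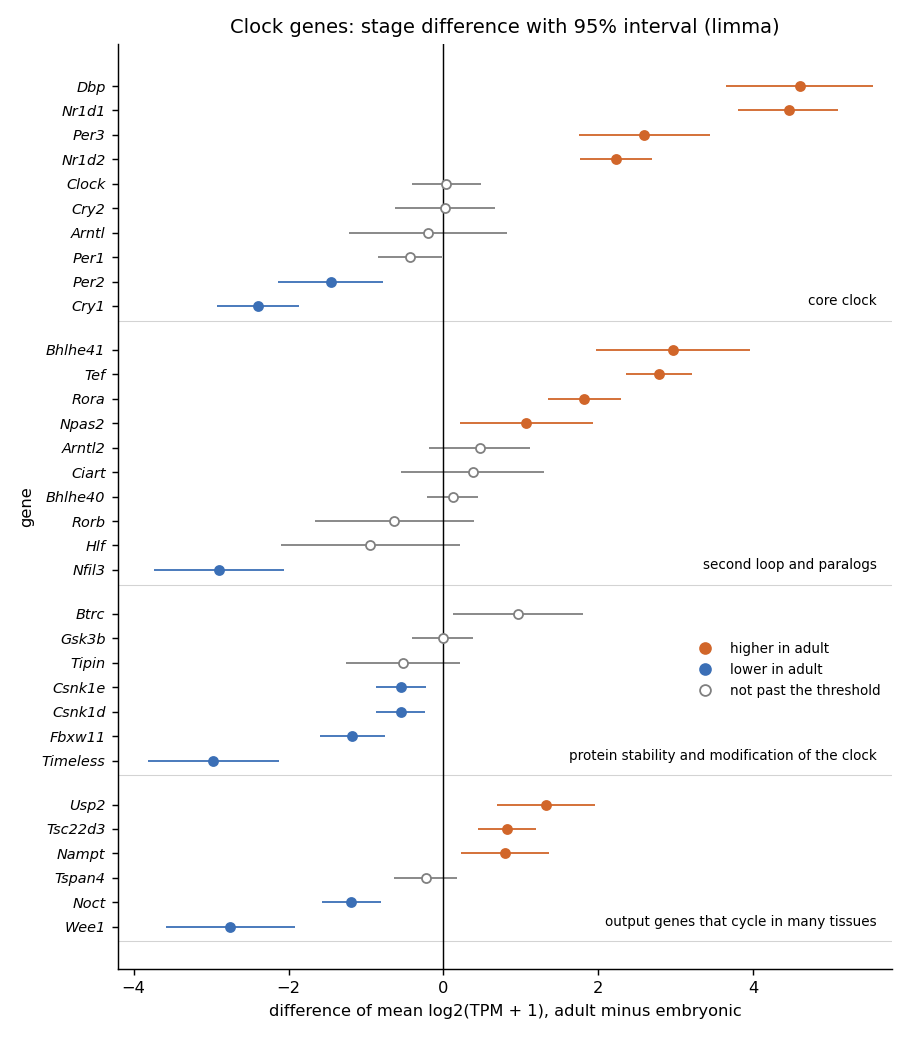
Difference of mean log2(TPM + 1), adult minus embryonic, with its 95% interval from limma, for the 10 core clock genes and 23 other clock genes, grouped by role; filled points passed an adjusted p under 0.05 over all genes. Of the core genes, Dbp and Nr1d1 lie farthest to the right at 4.60 and 4.46, and Cry1 farthest to the left at -2.40.

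Ratios of 2 members within a sample do not depend on scaling between samples. The log2 ratio of Nr1d1 to Arntl, a repressor to the gene it represses, was -1.33 ± 0.49 (SD, n = 3) in embryonic and 3.49 ± 1.17 (SD, n = 3) in adult samples, with every embryonic value below 0 and every adult value above 0. That of Dbp to Arntl went from -4.02 ± 1.75 to 1.62 ± 1.42 (SD, n = 3 each), where the lowest embryonic value, -6.04, rests on a Dbp level under 1 TPM. Cry2 to Cry1 went from -0.49 ± 0.15 to 2.01 ± 0.93 and Per3 to Per1 from -4.78 ± 0.36 to -1.27 ± 0.68 (SD, n = 3 each). Nr1d2 to Nr1d1 went the other way, from 0.95 ± 0.91 to -1.36 ± 0.38 (SD, n = 3 each).

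In 6 of the 7 ratios computed the stages did not overlap, and for each of these the exact two-sided permutation p was 0.1, the smallest that 3 samples against 3 can give (Benjamini-Hochberg over the 7 ratios, 0.117). The exception was Clock to Arntl, at 0.60 ± 0.19 in embryonic and 0.86 ± 0.89 in adult samples (SD, n = 3 each, exact permutation p = 0.8), a difference of 0.25 that turned to -0.23 without adult sample 1. The design cannot reach 0.05 with this test, so these ratios are given by their values.

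**Figure D4:**
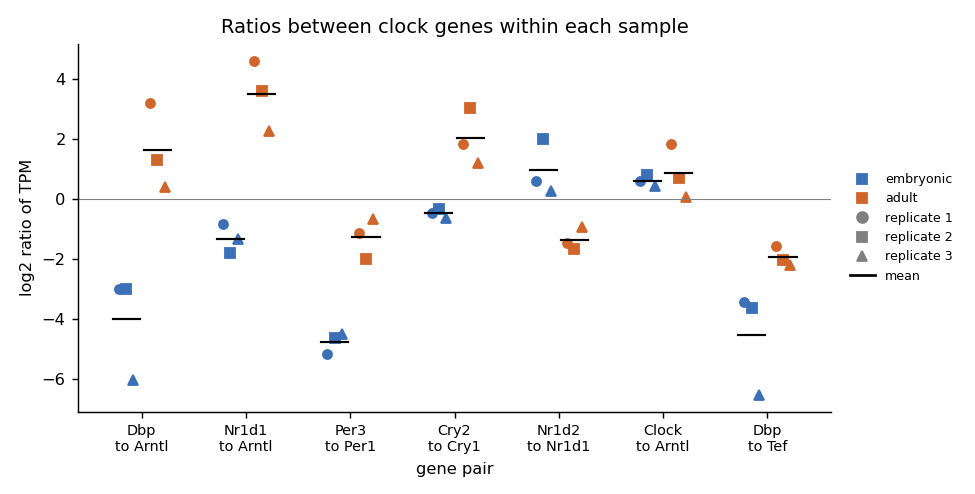
Log2 ratio of TPM for 7 pairs of clock genes within each of the 3 embryonic (blue) and 3 adult (orange) samples, with black lines for stage means and a grey line at 0, where both genes of a pair are equal. The stages are apart for 6 pairs and overlap for Clock to Arntl.

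Of 26 other clock genes in a list of regulators and outputs, 25 could be tested, and 15 of these (60.0%) passed, 8 higher and 7 lower, around a median log2 difference of 0.12, against 23.9% higher and 21.4% lower (45.3% in all) over all genes. The 8 higher were 5 under quantile normalization, under median-of-ratios scaling, without a filter on low values, and without embryonic sample 2, embryonic sample 3 or adult sample 3, where 7 were lower each time. At an adjusted p under 0.01 they were 5 higher and 5 lower. Fbxl21 was too low to be tested. Among 11 second-loop genes and paralogs, 5 were higher and 1 lower in adult chondrocytes (54.5% called). Tef, a D-box activator related to Dbp, was at 28.2, 33.2 and 45.9 TPM in embryonic and at 259, 245 and 238 TPM in adult samples, a log2 difference of 2.78 (SE 0.186, limma adjusted p = 1.2e-05). Nfil3, a repressor that binds the same D-boxes, was at 89.2, 88.2 and 103 TPM in embryonic and at 5.62, 18.8 and 14.5 TPM in adult samples, a log2 difference of -2.90 (SE 0.37, limma adjusted p = 3.7e-04). The D-box activators Dbp and Tef were thus higher, and the D-box repressor lower, in every adult sample. Hlf, the remaining activator of the family, had a log2 difference of -0.95 and did not pass (limma adjusted p = 0.159). Tef made up 82.9% and 78.6% of the summed TPM of Dbp, Tef and Hlf in embryonic and adult samples, so that it led the family at both stages. The log2 ratio of Dbp to Tef was -4.54 ± 1.73 in embryonic and -1.94 ± 0.33 in adult samples (SD, n = 3 each), a difference of 2.60 that was 1.60 without the third embryonic sample, where Dbp was at 0.494 TPM.

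The E-box repressor Bhlhe41 rose by 2.97 on the log2 scale (limma adjusted p = 8.0e-04), from 3.83, 1.3 and 1.06 TPM in embryonic to 27.2, 22.3 and 15.8 TPM in adult samples. Rora, an activating receptor at the sites where REV-ERB acts, rose by 1.82 (limma adjusted p = 1.9e-04), from 27.7, 17.7 and 21.0 TPM to 77.5, 87.5 and 74.1 TPM. Rora and both REV-ERB genes were thus higher in the adult samples, while Arntl, whose promoter holds the element, did not pass the test. Npas2 passed narrowly (1.07, limma adjusted p = 0.0459) and lost the call under 10 alternatives. Rorb, Arntl2, Bhlhe40 and Ciart, like Hlf, did not pass.

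Of 8 tested genes that modify the clock proteins or govern their stability, 0 were called higher by limma (1, Btrc, at an unadjusted p under 0.05) and 4 lower in adult chondrocytes, so that 4 of 8 were called, a share near the 45.3% of all genes. Csnk1d and Csnk1e, the casein kinases that phosphorylate PER proteins, had the same log2 difference of -0.55 (limma adjusted p = 0.0118 and 0.0126). The adjusted p was 0.0521 for Csnk1d in limma without a variance trend and 0.0558 for Csnk1e without embryonic sample 1. Fbxw11, which recognises phosphorylated PER for degradation, fell by 1.18 (limma adjusted p = 0.00106). Timeless fell by 2.97 (limma adjusted p = 3.4e-04), and in mammals it is best known for its work at the replication fork. Btrc, Gsk3b and Tipin did not pass.

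Among 6 output genes 3 were higher and 2 lower in adult chondrocytes (83.3% called, against 45.3% of all genes tested). Usp2, a deubiquitinase, rose by 1.32 (limma adjusted p = 0.0051), from 7.75 to 13.5 TPM in embryonic to 26.2 to 32.9 TPM in adult samples. Tsc22d3, which glucocorticoids also induce, rose by 0.82 (limma adjusted p = 0.00384). Nampt, the rate-limiting enzyme of NAD salvage, passed at 0.80 (limma adjusted p = 0.0292) but lost the call under 8 alternatives. Wee1, a kinase that holds back entry into mitosis, fell by 2.75 (limma adjusted p = 4.5e-04), and Noct, also called nocturnin, fell by 1.19 (limma adjusted p = 6.1e-04). Tspan4 did not pass. Markers of cycling cells fell beside Timeless and Wee1: all 5 were lower, as were 21.4% of all genes. Their summed level was 511 to 556 TPM in embryonic and 12.5 to 78.6 TPM in adult samples, and their part in these results was not tested.

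Over 6 samples, the genes with a pattern most like that of Dbp were Slc7a2, Abcb1b and Endou, by the root mean square difference of log2(TPM + 1) after centring (0.29, 0.38 and 0.42). For Nr1d1 they were Tmem204 (0.25), Car5b (0.27) and Vit (0.31), and for Per3 they were Mroh1 (0.15), Gm4631 (0.16) and Mturn (0.18).

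The spread of the members within a stage was near that of other genes. The median SD of log2(TPM + 1) was 0.27 for the members and 0.26 for all genes in embryonic samples, and 0.34 and 0.35 in adult samples, with 5 of 10 members above the median of all genes at each stage. Dbp had the widest SD of the embryonic members (0.74) and Arntl of the adult ones (0.97).

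Clock transcripts can also respond to handling, hormones and temperature, so 3 lists of such genes were set beside them, of which 4 of 7, 2 of 5 and 3 of 6 genes were called, shares near the 45.3% of all genes. Of 7 immediate early genes 1 (Junb) was higher and 3 (Fosb, Jun and Atf3) lower in adult samples, and their summed level was 3020 to 3490 TPM in embryonic and 2430 to 2710 TPM in adult samples. Of 5 glucocorticoid-responsive genes 2 (Tsc22d3 and Sgk1) were higher, with sums of 502 to 655 TPM and 1060 to 1470 TPM. Of 6 temperature-responsive genes 1 (Hspa1b) was higher and 2 (Rbm3 and Dnajb1) lower, with sums of 1280 to 1590 TPM and 1370 to 2790 TPM. That sum joins opposite changes: the mean of Hspa1b went from 206 to 1210 TPM, while Rbm3 went from 467 to 118 TPM and Dnajb1 from 109 to 62.8 TPM. The part of these responses in the clock results was not tested.

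Cartilage markers were present at both stages, though Matn3 was only at 1.11 to 3.65 TPM in adult samples. The summed level of 6 chondrocyte markers was 18300 to 19700 TPM in embryonic and 6680 to 9350 TPM in adult samples. Col2a1 was the largest part of that sum in every sample. Sox9 was higher and Col2a1, Hapln1, Col9a1 and Matn3 lower in adult samples, and Acan did not pass. The mean of Matn3 went from 201 to 2.2 TPM, that of Col9a1 from 1930 to 44.8 TPM and that of Sox9 from 436 to 715 TPM. Osteoblast markers stood at 11.5 to 46.4 TPM in embryonic and 252 to 396 TPM in adult samples (2 of 4 higher, Ibsp and Bglap, and Dmp1 lower), and leukocyte markers at 4.8 to 13.7 and 17.9 to 66.2 TPM (1 of 2 tested higher, Cd68, with Cd3e at 0 in all samples). Tendon and fibroblast markers went from 582 to 780 TPM to 163 to 284 TPM (3 of 4 lower) and endothelial markers from 10.6 to 23.0 TPM to 3.79 to 10.8 TPM (1 of 2 tested lower, Tek, at a mean of 12.5 and 0.6 TPM). Pecam1, the gene of CD31, was at 1.29 to 1.75 TPM in embryonic and 2.79 to 6.87 TPM in adult samples, higher in each adult sample, and did not pass (limma adjusted p = 0.123), and Cdh5 was at most 2.36 TPM. Muscle markers (up to 19.4 TPM) and erythroid markers (0 to 104 TPM in embryonic and 1.41 to 33.8 TPM in adult samples) gave 0 calls by limma (1 and 0 genes at an unadjusted p under 0.05), and Krt5 and Krt14 of skin were at 0 in all samples. Of the genes of the sort, Alpl was higher in adult samples, Bmpr1b did not pass (16.4 to 20.3 and 4.51 to 18.5 TPM) and Ptprc was at most 2.29 TPM. These counts stand beside 45.3% of all genes called, 23.9% higher and 21.4% lower in adult samples, and 56.5% with no overlap between stages. The part of these cell types in the clock results was not tested.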

How the data were processed

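RNA-seq was analysed from 6 mouse samples, 3 embryonic and 3 adult. According to the methods, the authors amplified cDNA with random and poly(T) primers (the labels name an mRNA-Seq kit), sequenced single-end reads, mapped them to GRCm38 (mm10) with RefSeq annotations and estimated levels with RSEM, whose version is not given in the sources used here. The deposited values are log2(TPM + 1) per gene. Back on the linear scale they add up to 1000000 TPM in every sample, so they carry no read depth and precision rests on 3 samples a stage. The paper refers to its supplement for numbers of reads, which were not used here. If replicates of a stage were not separate animals, p-values measure a spread that may be technical.

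Symbols and positions came from GENCODE M21 (21902 of 22032 identifiers matched). limma 3.58.1 in R 4.3.3 (lmFit, eBayes with trend, stage as the only term) was fitted to log2(TPM + 1), pseudocount 1, for the 13125 genes whose mean reached 1 TPM, with Benjamini-Hochberg adjustment and a threshold of 0.05, and was tested on simulated data. EBSeq, named by the authors, needs counts and was not used. Other clock genes were named if past the threshold and otherwise counted, a few genes within these counts are not reported here by name, and the 3 members with the largest difference were given the 3 genes most like them. The members, lists and tests were chosen with earlier results of these data known. Alternatives were another pseudocount, filter, scaling, variance model, threshold, a replicate block and leaving out each sample. Python 3.11.15 was used for the rest.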

Additional observations from a re-analysis of the deposited data

How the results depend on the processing

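The 6 core clock calls were made under every alternative run, with adjusted p-values up to 0.0242 (Per2), and Per1 joined them under median-of-ratios scaling and without adult sample 2, so that leaving out single samples gave 6 to 7 core calls. Of 150 values of the members' differences under alternatives, 139 kept their direction and side of the threshold. The exceptions besides Per1 were differences near 0 that changed sign without a call. Arntl was 0.33 without adult sample 1 (-0.63 to 0.33 with single samples left out). Clock was -0.05 under quantile normalization and -0.11 under median-of-ratios scaling, and ran from -0.08 to 0.15 with single samples left out. Cry2 was -0.01 and -0.12 under those scalings and ran from -0.34 to 0.21. Over all genes, 3718 passed an adjusted p under 0.01, against 5949 under 0.05, and 4604 to 5617 with single samples left out. The median difference of all genes, 0.16, was 0.09 under quantile normalization, 0.03 under median-of-ratios scaling and 0.25 without the 20 highest genes, where 3493 genes were higher and 2521 lower. Quantile normalization gave 2792 and 2830.

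Replicate numbers gave no sign of pairing the samples, in a check limited by 3 samples a stage. The stage mean of each gene was subtracted first, and what remained was correlated across genes. The correlations were -0.009, -0.017 and -0.022 between an embryonic and an adult sample of the same number. Between samples of different numbers they ran from -0.002 to 0.016. With a replicate block, 6 core genes, 13 of the other clock genes and 5430 of all genes passed. Calls among the other clock genes numbered 10 (adjusted p under 0.01) to 16, and 12 to 14 with single samples left out. Of the 15, 10 passed under every alternative and 5 did not, among them Npas2, Nampt, Csnk1d and Csnk1e. The 140 values of ratios and shares under alternatives each moved by less than the SD pooled over the stages, though some moved by more than the SD of a single stage. Those that moved by over 1.5 times were the differences between stages in Dbp to Tef, in Clock to Arntl (also 0.165 without embryonic sample 3 and 0.652 without adult sample 3) and in the shares of Per1, Clock, Npas2 and Tef. The share of Tef differed by -4.3 points and by -1.47 with a pseudocount of 1, -8.61 without embryonic sample 1, -1.38 without embryonic sample 3 and -2.32 without adult sample 1. TPM carries no read depth, and the counting error of low values such as embryonic Dbp and Per3 was not estimated.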
